A study of Rattus norvegicus with 20 samples.

Results

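The genes described here are 10 genes linked to Slc17a7, the gene of a vesicular glutamate transporter, and are Slc17a7 itself, Neurod6, Neurod2, Neurod1, Bhlhe22, Slc30a3, Rtn4rl2, Cxcl13, Synpr and Rasgrp1. They were chosen from earlier results of these data, because their levels followed Slc17a7 from rat to rat or were low in the dehydrated aged rats, so those features are described and not tested. The choice used no numeric threshold. All 10 were found by symbol among the 32402 genes of each table, and all 10 passed the filter of a mean of at least 10 normalized counts in every fit.

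The study profiled the supraoptic nucleus (SON) of male Wistar Han rats by RNA sequencing, to compare the response to dehydration in adult and in aged animals. Adult rats were 3 months and aged rats 18 months old. Euhydrated (EH) rats had free access to food and water, and dehydrated (DH) rats had no drinking water for 2 days by the sample labels, whereas the study's methods give a longer period. Each of the 4 groups had 5 rats, and bilateral core punches of the SON from each rat gave a library of polyadenylated RNA. The labels name no genetic change and no further agent in any group. A punch holds the nucleus with whatever lies beside it, and in such bulk samples fewer cells of a type and less RNA per cell cannot be told apart.

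Neurons that release glutamate load it into synaptic vesicles with a transporter of the Slc17 family. Slc17a7 (VGLUT1) is the form typical of the cortex, hippocampus and other pallial regions, whereas Slc17a6 (VGLUT2) is the main form of the hypothalamus and thalamus. Basic helix-loop-helix (bHLH) factors of the NeuroD group, together with Bhlhe22, drive the differentiation of excitatory forebrain neurons and bind DNA at a short motif called the E-box.

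The recovered whole reads summed to between 24268398 and 28491926 per adult rat, and the normalized counts summed to between 25931931 and 28689164 per rat over the 3 tables. The SON label was met by Avp (vasopressin), which lay between 113731 and 325751 normalized counts in the 20 rats, and by Oxt (oxytocin), between 71073 and 147870. Both are the defining hormones of magnocellular neurons. Slc17a6 lay between 4050 and 5820 normalized counts and was thus present in every rat beside Slc17a7. A normalized count is the read count divided by a size factor of the library, which the authors estimated in each table. Levels set across tables were brought to a common scale, with factors per library between 0.975 and 1.02.

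E-box motifs were sought in the 250 bases upstream of the start of each gene, since 4 of the 10 genes encode bHLH factors and the levels of the 10 moved together. RefSeq (GRCr8) held such a window for 9 of the 10 genes, all but Bhlhe22. The E-box CAGATG, a form that NeuroD factors bind, was searched on both strands and is printed in capitals. It is itself 1 of the forms of the general E-box CANNTG. The windows of Neurod6 and Neurod2 are shown because they hold CAGATG, and that of Slc17a7 because it is the gene to which the others were compared. The Neurod6 window is chr4:86180156-86180405 on the minus strand, the Neurod2 window is chr10:83824278-83824527 on the minus strand and the Slc17a7 window is chr1:104785955-104786204 on the plus strand.
Neurod6: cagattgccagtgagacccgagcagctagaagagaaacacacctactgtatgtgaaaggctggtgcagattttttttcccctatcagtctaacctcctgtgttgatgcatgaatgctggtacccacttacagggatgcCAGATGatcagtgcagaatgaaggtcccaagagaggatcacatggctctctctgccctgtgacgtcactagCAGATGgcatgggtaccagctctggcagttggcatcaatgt
Neurod2: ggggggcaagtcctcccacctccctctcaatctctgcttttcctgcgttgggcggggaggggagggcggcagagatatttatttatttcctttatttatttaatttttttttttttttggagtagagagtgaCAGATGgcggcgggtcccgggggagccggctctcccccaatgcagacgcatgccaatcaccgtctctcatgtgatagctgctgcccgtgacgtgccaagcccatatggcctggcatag
Slc17a7: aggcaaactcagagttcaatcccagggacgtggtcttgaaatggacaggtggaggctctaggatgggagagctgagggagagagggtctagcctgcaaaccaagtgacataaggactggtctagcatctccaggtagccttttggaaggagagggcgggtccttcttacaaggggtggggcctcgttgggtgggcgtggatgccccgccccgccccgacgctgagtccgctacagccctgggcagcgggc
In Neurod6 the motif began 112 and 41 bases upstream of the start, and in Neurod2 it began 118 bases upstream. These were 2 of the 9 windows, and 14.0% of 33469 rat windows of the same length held the motif. The general form CANNTG, in which N is any base, was in 8 of the 9 windows and in 65.5% of all. The Slc17a7 window held CANNTG at 2 places and no CAGATG. A match describes only the letters of a window.

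Expression of all 10 genes was lower in aged DH than in aged EH rats, with log2 fold changes (LFC) of log2(normalized count + 1) between -2.49 for Neurod6 and -0.77 for Neurod1. The median LFC of the 10 genes was -1.23, beside a median of -0.0030 over all 15346 genes. The values of the 2 groups did not overlap for 8 of the 10 genes, and for Neurod2 and Neurod1 they did. Over all genes 2.93% did not overlap and were lower in DH. Since this contrast chose the genes, nothing is read from that count and no test is given.

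Slc17a7 (ENSRNOG00000020650) had 3261, 2035, 1916, 1609 and 1109 normalized counts in the aged EH rats numbered 1, 2, 4, 5 and 6. In the aged DH rats numbered 1, 2, 3, 5 and 6 it had 1064, 324, 351, 389 and 614. The highest DH rat thus lay just under the lowest EH rat, and the other DH rats lay far lower. The means were 1986 ± 797 in EH and 549 ± 310 in DH (SD, n = 5), an LFC of -1.92.

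Slc30a3 (ENSRNOG00000006204) encodes ZnT3, the transporter that loads zinc into the vesicles of a subset of glutamatergic neurons. It had 609, 379, 465, 415 and 267 normalized counts in aged EH and 229, 200.03, 179, 168 and 228 in aged DH, in the same order of rats. The DH rats were close to each other and all below the EH rats, with an LFC of -1.04.

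The 4 bHLH factors differed in size. Neurod6 (ENSRNOG00000026055), found in differentiated excitatory forebrain neurons, had 148, 109, 83.5, 58.96 and 40.3 normalized counts in aged EH. In aged DH it had 17.5, 10.4, 12.9, 7.12 and 25.2, all below the EH rats. Its LFC of -2.49 was the lowest of the 10 and ranked second from the lowest over all genes tested.

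Neurod2 (ENSRNOG00000028417), which promotes neuronal differentiation and synapse maturation, had 116, 63.97, 73.1, 51.2 and 39.4 normalized counts in aged EH. In aged DH it had 40.8, 10.4, 9.90, 13.2 and 24.2. A single DH rat, number 1, exceeded the lowest EH rat, and the LFC was -1.86.

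Neurod1 (ENSRNOG00000005609), which acts in neurons and also in endocrine cells, had 98.3, 84.0, 106, 72.5 and 44.0 normalized counts in aged EH and 46.6, 39.6, 44.5, 45.8 and 49.4 in aged DH. The DH rats stayed within a narrow band (coefficient of variation 7.97%) that reached above the lowest EH rat. Bhlhe22 (ENSRNOG00000021745), a repressor that shapes cortical and dorsal cord neurons, ranged from 344 to 554 in the EH rats against 186 to 241 in the DH rats, without overlap. Its LFC was -1.05, and that of Neurod1 was -0.77.

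Among the signalling genes, Cxcl13 (ENSRNOG00000024899) encodes a chemokine best known for attracting B cells. It had 281, 373, 250.5, 177 and 91.6 normalized counts in aged EH and 74.7, 20.8, 45.5, 35.6 and 44.4 in aged DH. All DH rats lay under all EH rats and the LFC was -2.35. Rasgrp1 (ENSRNOG00000005404), which activates Ras in response to diacylglycerol and calcium, spanned 2693 to 3505 in the EH rats and 1447 to 2280.3 in the DH rats. The groups did not overlap and its LFC was -0.81.

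Synpr (ENSRNOG00000008203) encodes synaptoporin, a membrane protein of synaptic vesicles, and Rtn4rl2 (ENSRNOG00000021513) encodes a receptor related to the Nogo receptor. Synpr had 3408, 2817, 2845, 2309 and 2030.0 normalized counts in aged EH and 1556, 1074, 1233, 1312 and 1630.3 in aged DH. Rtn4rl2 spanned 41.6 to 90.1 in the EH rats and 14.8 to 37.9 in the DH rats. Neither gene overlapped between the groups, and the LFCs were -0.97 and -1.42.

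**Figure D1:**
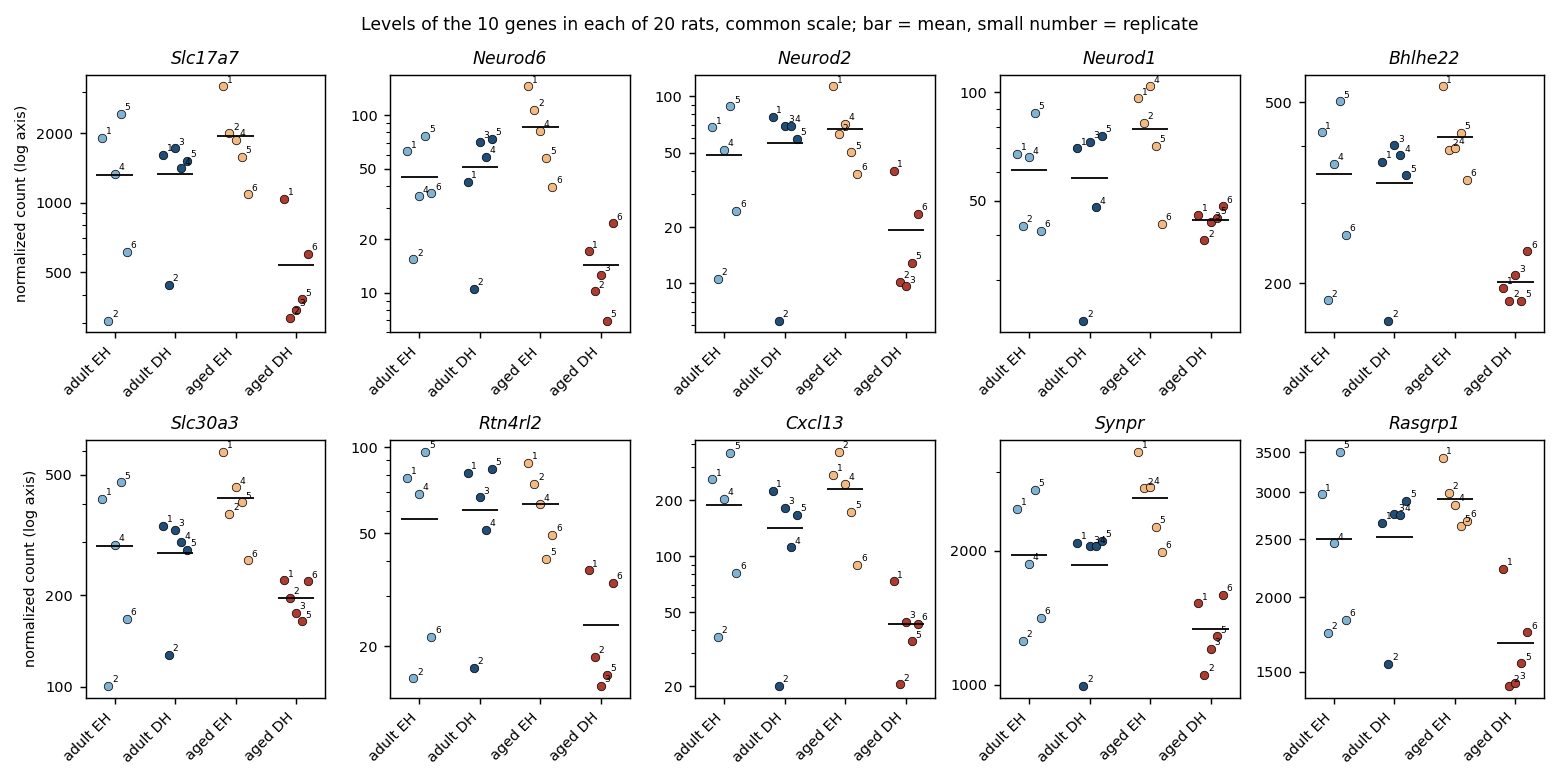
Normalized counts on a common scale (log axes, each with its own range) of the 10 genes in the 20 rats, 5 rats for each of 4 groups. Points are rats with their replicate number, bars are group means, and the aged DH rats lie low in every panel while adult EH replicates 2 and 6 and adult DH replicate 2 also lie low.

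In the adult rats the question was whether dehydration moved the same genes. None of the 10 genes passed the test (limma on all genes, Benjamini-Hochberg adjusted p between 0.775 and 0.949), where 12.7% of all 15280 genes passed, 7.67% higher and 4.99% lower. The LFCs lay between -0.37 for Cxcl13 and 0.23 for Slc17a7 and Rtn4rl2, with 4 below and 6 above 0, and the lowest unadjusted p was 0.586. On the recovered whole reads edgeR and DESeq2 also called 0 of the 10. The adult rats took no part in the contrast between aged groups, but the choice for co-variation with Slc17a7 may have used them.

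The spread between adult rats was wide for these genes. Slc17a7 had 1881, 304, 1314, 2391 and 603 normalized counts in the adult EH rats numbered 1, 2, 4, 5 and 6. In the adult DH rats numbered 1 to 5 it had 1583, 432, 1690.1, 1384 and 1494. All DH rats lay within the EH range, with DH replicate 2 between the 2 lowest EH rats. The LFC was 0.23 (95% interval -0.87 to 1.32), so changes of either direction inside that interval remained compatible with the values of these rats.

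Neurod6 had 61.6, 15.2, 34.3, 74.9 and 35.7 normalized counts in adult EH and 41.6, 10.4, 69.6, 57.2 and 72.5 in adult DH. Neurod2 had 67.4, 10.5, 51.0, 87.1 and 24.1 in adult EH and 76.4, 6.22, 68.7, 68.5 and 58.6 in adult DH. For both factors the rat numbered 2 was the lowest of its group in EH and in DH. Their LFCs were 0.11 (95% interval -0.97 to 1.19) and 0.17 (-1.25 to 1.59).

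Cxcl13 had 255, 36.2, 200.3, 352 and 80.1 normalized counts in adult EH and 222, 19.7, 179, 110.0 and 164 in adult DH. Its LFC of -0.37 had the widest interval of the 10 genes, from -1.80 to 1.06. Rasgrp1, with 1718 to 3457 in adult EH and 1518 to 2863 in adult DH, had the narrowest, from -0.40 to 0.46 around an LFC of 0.03.

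The other adult LFCs were -0.13 for Neurod1 (95% interval -0.79 to 0.53), -0.04 for Bhlhe22 (-0.63 to 0.56), 0.06 for Slc30a3 (-0.76 to 0.88), 0.23 for Rtn4rl2 (-0.90 to 1.36) and -0.06 for Synpr (-0.57 to 0.45). All intervals held 0. The residual SD of the 10 genes lay between the 92.2 and 99.8 percentiles of all genes tested, at 0.41 to 1.36 log2 units, where the median of all genes was 0.106.

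A few adult rats decided the adult values. Without adult EH replicate 2 the LFC of Slc17a7 was -0.21, and without adult DH replicate 2 it was 0.59. For Neurod2 the same pair of settings gave -0.27 and 0.82, and for Cxcl13 they gave -0.85 and 0.23. With both rats left out, a choice made after the data were seen, the LFCs were 0.16 for Slc17a7, 0.27 for Neurod6, 0.38 for Neurod2 and -0.25 for Cxcl13. None of the 10 genes passed the test in any of these fits.

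The low adult rats reached the levels of the aged DH rats. On the common scale, the mean log2 deviation of the 10 genes from their means over 20 rats was lowest in adult DH replicate 2, at -1.36. Aged DH replicate 2 followed at -1.19 and adult EH replicate 2 at -1.10, and adult EH replicate 6 ranked seventh from the lowest at -0.47. The 5 aged DH rats lay between -1.19 and -0.31 and the 5 aged EH rats between 0.03 and 1.18. For Slc17a7, 3 of the 10 adult rats lay at or under the highest aged DH rat and 7 within the range of the aged EH rats.

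Slc17a6, the hypothalamic transporter, was not low in the same adult rats. It had 4787 normalized counts in adult EH replicate 2 and 4510.2 in adult DH replicate 2, where the other adult rats lay between 4308 and 5229. Avp was at its lowest of the 20 rats in adult EH replicate 2, at 113731, but at 239575 in adult DH replicate 2. The part of these genes in the result was not tested.

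**Figure D2:**
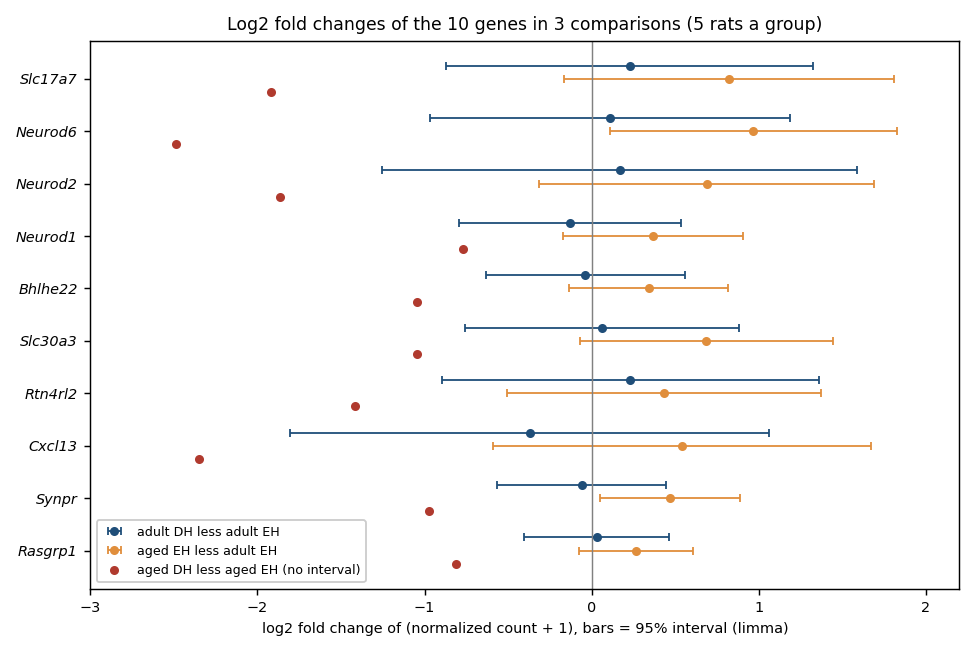
Log2 fold changes (x axis, log2 units of normalized count + 1) of the 10 genes in adult DH, ageing and aged DH, 5 rats a group. Bars are 95% intervals from limma, left out for aged DH because that contrast chose the genes; every adult DH interval holds 0 and the aged DH values lie between -2.49 and -0.77.

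Ageing itself was compared between aged EH and adult EH rats, and the aged EH rats are also those of the contrast that chose the genes. A choice for levels lower in aged DH than in aged EH favours high aged EH values, so nothing is read from the direction of the LFCs. All 10 genes had a mean above that of adult EH, with LFCs between 0.26 for Rasgrp1 and 0.97 for Neurod6 and a median of 0.50. None passed the test (limma, Benjamini-Hochberg adjusted p between 0.188 and 0.653), where 5.99% of 15369 genes passed, 2.69% higher and 3.30% lower. The values of the 2 groups overlapped for every one of the 10 genes, where 2.95% of all genes were higher and 3.43% lower without overlap.

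In the table of this comparison the mean of Neurod6 was 88.2 ± 42.5 in the older and 46.2 ± 24.8 in the younger EH rats (SD, n = 5). Its 95% interval, which is not adjusted for the number of genes, was 0.11 to 1.82, and its adjusted p was 0.188. Synpr had the other interval above 0, from 0.05 to 0.89 around an LFC of 0.47 (limma adjusted p = 0.191). These were 2 of the 10 genes, and 20.3% of all genes had an unadjusted p under 0.05. Slc17a7 had an LFC of 0.82 (95% interval -0.17 to 1.81, adjusted p = 0.354), and without adult EH replicate 2 it had 0.38.

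Markers of other cells differed with age in the same rats, and the counts are of genes that passed the test (limma). Of the 9 oligodendrocyte markers 6 passed and were lower in aged EH, with a summed level of 246469 to 298498 against 278860.0 to 404456 in adult EH. Of the 7 microglia markers 3 passed and were higher (7408 to 8501 against 6145 to 7101), and of the 6 vascular and meningeal markers tested 3 passed and were lower (6353 to 7672 against 9142 to 9769.9 over the 7 markers found). Of the 6 astrocyte markers 2 passed and were lower (158670.0 to 188587 against 158789 to 190535). Their part in the values of the 10 genes was not tested.

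The interaction of age with DH, which is the aged DH LFC less the adult DH LFC, contains the contrast that chose the genes, so its values are given without a test. It was below 0 for all 10 genes, between -2.60 for Neurod6 and -0.64 for Neurod1, with -2.15 for Slc17a7, -2.03 for Neurod2 and -1.98 for Cxcl13. Over all 15326 genes limma called 0 (0% of them) at an adjusted p under 0.05, and 1522 (9.93%) had an unadjusted p under 0.05. For Slc17a7 the value was -1.71 without adult EH replicate 2 and -2.51 without adult DH replicate 2.

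From rat to rat the 10 genes rose and fell together. Correlations were taken over the 20 rats on log2 values after the mean of each group was removed, and they share libraries, so they are a description. The 45 pairs among the 10 genes had Pearson's r between 0.790 (Neurod1 and Rasgrp1) and 0.959 (Slc17a7 and Neurod2), with a median of 0.896. Since co-variation was a reason for choosing them, high values are what the choice gives.

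Neurod2 stood first of 13101 genes by likeness to Slc17a7 (r = 0.959, Spearman's rho = 0.959), and Rasgrp1 stood second (r = 0.958, rho = 0.950). Rtn4rl2 (r = 0.945, rho = 0.928), Synpr (0.943, 0.919), Slc30a3 (0.940, 0.944) and Cxcl13 (0.925, 0.899) were among the first 9. Bhlhe22 (0.896, 0.863), Neurod6 (0.862, 0.798) and Neurod1 (0.798, 0.797) came at ranks 15, 25 and 37. Over all genes the median r was -0.0023 and 35 genes (0.267%) had r of at least 0.8, 8 of them among the 10 genes.

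With group means removed, the 2 rats farthest from the median of Slc17a7 were adult EH replicate 2 and adult DH replicate 2. With these 2 rats left out, r was 0.966 for Neurod2, 0.951 for Rasgrp1, 0.804 for Bhlhe22 and 0.724 for Neurod1, the lowest of the 9. The group means that were removed still included the 2 rats, so these r values are not free of them. Within the aged rats alone r lay between 0.605 for Bhlhe22 and 0.985 for Neurod2, and within the adult rats between 0.869 for Neurod1 and 0.996 for Slc30a3. All of the 9 but Neurod2 (0.985 against 0.952) had lower r in the aged than in the adult rats, by little for Rasgrp1 (0.958 against 0.960). Bhlhe22 and Neurod1 had the lowest r in the aged rats (0.605 and 0.609), against 0.985 and 0.869 in the adult rats. Since co-variation was a reason for the choice, no conclusion is drawn from high values at either age.

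The genes moved by different amounts. For each log2 unit of Slc17a7 between adult rats, Cxcl13 moved by 1.26 log2 units, Neurod2 by 1.22, Rtn4rl2 by 0.98, Neurod6 by 0.86, Slc30a3 by 0.74, Bhlhe22 by 0.53, Neurod1 by 0.49, Synpr by 0.44 and Rasgrp1 by 0.38. The slope in adult rats multiplied by the aged DH LFC of Slc17a7 gave -2.42 for Cxcl13, whose own aged DH LFC was -2.35, -1.01 for Bhlhe22 (-1.05), -0.85 for Synpr (-0.97), -0.72 for Rasgrp1 (-0.81) and -0.95 for Neurod1 (-0.77). It gave -2.33 for Neurod2 (-1.86), -1.88 for Rtn4rl2 (-1.42), -1.42 for Slc30a3 (-1.04) and -1.65 for Neurod6 (-2.49). In the aged rats the slopes were 0.88 for Cxcl13, 1.09 for Neurod2, 0.72 for Rtn4rl2, 0.83 for Neurod6 and 0.41 for Slc30a3. They were 0.19 for Bhlhe22, 0.34 for Neurod1, 0.37 for Synpr and 0.33 for Rasgrp1. Each lay below the adult slope, closely for Neurod6 and far below for Bhlhe22. The products above use the adult slopes only. No test was made of these differences. Co-variation with Slc17a7 and low levels in dehydrated aged rats were the reasons for choosing the genes. Nothing is therefore read from how near a product lies to the LFC of its gene.

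**Figure D3:**
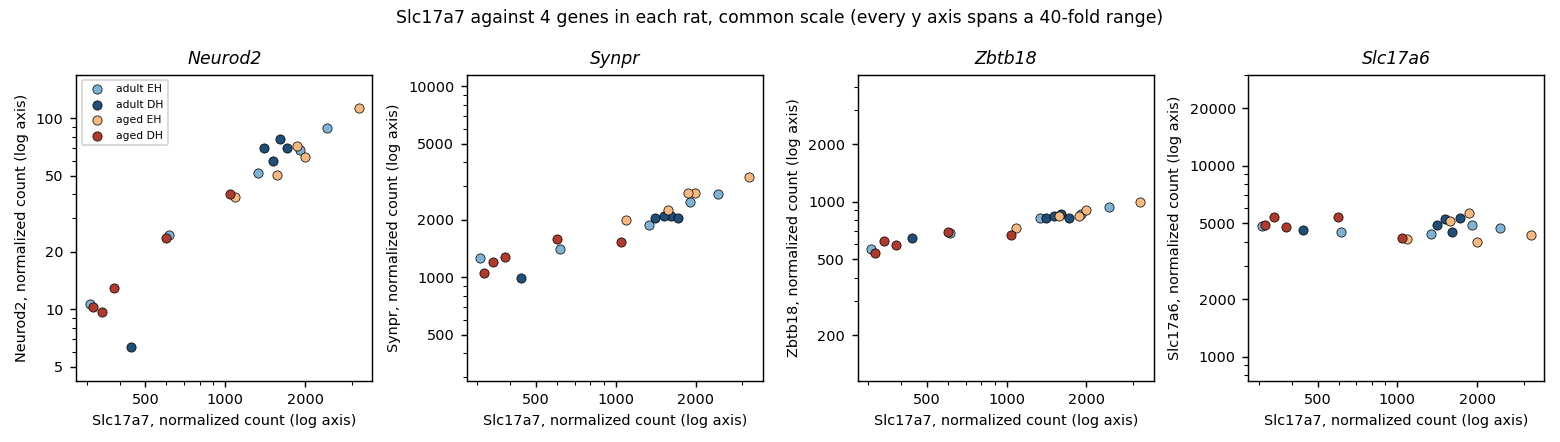
Slc17a7 (x) against Neurod2, Synpr, Zbtb18 and Slc17a6 (y) in each of the 20 rats, as normalized counts on a common scale with log axes. Points are rats coloured by group; Neurod2, Synpr and Zbtb18 climb with Slc17a7 in all groups, and Slc17a6 stays flat (r = -0.04 with group means removed).

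The genes outside the 10 with the most similar pattern were Zbtb18 (r = 0.953, rho = 0.929), a repressor needed in developing cortical neurons, and Tac3 (r = 0.942, rho = 0.967), the gene of neurokinin B. They were followed by Lnp1 (r = 0.925), Rasl11b (0.921), Lmo3 (0.916), Kif6 (0.910), Gpr83 (0.903), Mlip (0.899), Hs3st2 (0.880) and Dipk2a (0.877). Lmo3 is a LIM-domain cofactor of bHLH factors and Gpr83 a peptide receptor. All had lower means in aged DH, with LFCs between -1.49 for Tac3 and -0.30 for Gpr83. Their likeness to Slc17a7 was measured in these same rats, and Slc17a7 is among the genes chosen with low aged DH levels as a reason. Nothing is therefore read from that shared direction.

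Tac3 had 1244, 760, 812, 665 and 549.7 normalized counts in aged EH and 449.5, 186, 219.7, 260.3 and 328 in aged DH. All DH rats were under all EH rats (LFC -1.49, 95% interval -1.98 to -1.01, limma adjusted p = 0.00177). Zbtb18 also did not overlap, with 746 to 1013 in the aged EH rats against 550.1 to 707 in the DH rats (LFC -0.46, adjusted p = 0.00385). In adult DH neither passed the test (LFC 0.01 and 0.05, adjusted p = 0.987 and 0.840). Both genes were named for their likeness to Slc17a7, so their aged DH values are a description and no independent support.

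Forebrain excitatory neuron markers that are not among the 10 genes were lower as well in aged DH. Of 25 tested, 10 passed the test and all 10 were lower, beside 7.29% of all genes, 3.25% lower and 4.05% higher, and the median LFC of the 25 was -0.27. The list was chosen with earlier results of these data known, and it holds Zbtb18 and Lmo3, named above for their likeness to Slc17a7. The count is thus a description and no independent support. The 4 with the lowest adjusted p were Lmo3 (LFC -0.67, limma adjusted p = 0.000472), Sv2b (-0.66, 0.000483), Rprm (-0.77, 0.00138) and Bcl11b (-0.56, 0.00313). Sv2b encodes a synaptic vesicle protein, Rprm a cell cycle inhibitor used as a marker of deep cortical layers, and Bcl11b a transcription factor of deep layer and striatal neurons.

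The summed level of the 25 markers lay between 31379.7 and 40267 in aged EH and between 23887 and 30380.4 in aged DH. Of the defining factors of pallial neurons, Tbr1 had an LFC of -0.27 (limma adjusted p = 0.202), Emx1 -0.02 (0.980) and Fezf2 0.36 (0.0772), and these 3 did not pass the test in aged DH. None of the 3 was at 0, and Tbr1 lay between 300.0 and 552 in the aged rats. The 25 markers' part in the values of the 10 genes was not tested.

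Of the forebrain markers with a mean high enough to be compared, 12 of 23 had r of at least 0.5 with Slc17a7, beside 3.43% of all genes. Their r ranged from -0.520 to 0.953, and the r of the summed level was 0.725. The limit on how the list was chosen holds here too. Tbr1 had r = 0.232 (rho = 0.304) and Fezf2 had r = -0.073 (rho = -0.090). In adult DH 3 of the 25 markers passed the test, where 12.7% of all genes did, Wfs1 (LFC -0.65) and Nrgn (-0.61) lower and Fezf2 (0.24) higher. Lower LFCs were not particular to the aged rats, with 20 of the 25 below 0 in adult DH and 19 in aged DH. The adult median LFC was -0.12, and the summed level lay between 28403 and 38951 in adult EH and between 23641 and 32500 in adult DH. For the difference between the ages 0 of the 25 passed by limma, as 0 of all genes did. In ageing 0 passed by limma, with 1 at an unadjusted p under 0.05.

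**Figure D4:**
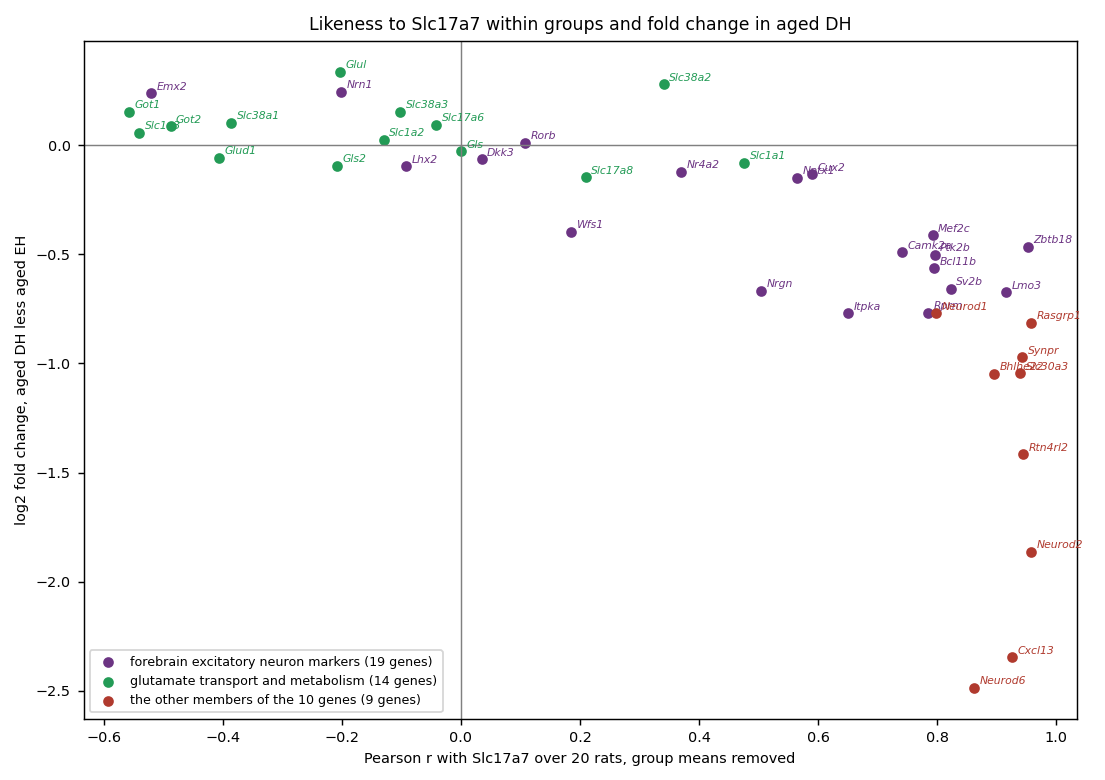
Pearson's r with Slc17a7 over 20 rats with group means removed (x axis) against the aged DH log2 fold change (y axis), with a point for each gene. The 9 other genes of the 10 lie at the lower right, the forebrain excitatory neuron markers (without the defining factors) run from the upper left to the right, and the glutamate transport genes lie near 0 on the y axis.

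Genes of glutamate handling were compared because the 10 genes carry the label of glutamatergic neurons. Of 14 glutamate transport and metabolism genes outside the 10, 4 passed the test in aged DH and all 4 were higher, beside 4.05% higher over all genes, namely Glul (LFC 0.34, limma adjusted p = 0.00769), Slc38a2 (0.28, 0.0129), Got1 (0.15, 0.0356) and Slc38a3 (0.15, 0.0445). Glul makes glutamine from glutamate, and Slc38a2 and Slc38a3 carry glutamine. Slc17a6 had an LFC of 0.09 in aged DH (95% interval -0.11 to 0.30, adjusted p = 0.637) and 0.07 in adult DH (-0.04 to 0.18, 0.395). None of the 14 had r of at least 0.5 with Slc17a7, and their r ran from -0.558 to 0.476. Slc17a6 had r = -0.04 (rho = -0.03). The summed level of the 14 genes ran opposite to Slc17a7 within groups (r = -0.547, rho = -0.525), which was not tested.

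The relatives of the other genes mostly did not pass the test in aged DH, where 7.29% of all genes passed, and shares such as 1 of 13 or 1 of 12 are near that background. Of 13 other bHLH factors tested, 20 of which were listed, 1 passed, Nhlh2, a hypothalamic factor that was higher (LFC 0.50, limma adjusted p = 0.0328). Of 20 zinc handling genes 3 passed and were higher, Slc39a6 (0.26), Slc39a8 (0.42) and Mt3 (0.15). The plasma membrane zinc importers Slc39a6 and Slc39a8 act in the opposite direction to Slc30a3, which moves zinc out of the cytosol into vesicles.

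Of 8 genes of the Nogo receptor pathway 2 passed, and Rtn4rl1 was higher (LFC 0.32) and Lingo1, a co-receptor of the Nogo receptor, lower (-0.28). Of 12 synaptic vesicle membrane genes 1 passed, Syn2, which was lower (-0.28). Of 9 Ras genes and exchange factors 1 passed, Hras, which was higher (0.17). Of 11 chemokine and B cell genes 2 passed, and Cxcl14 was higher (0.24) and Cx3cl1 lower (-0.23).

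Among the other cell types, 0 of 11 GABAergic, 0 of 10 striatal, 0 of 6 astrocyte, 0 of 7 microglia and 0 of 6 vascular and meningeal markers passed the test in aged DH by limma. At an unadjusted p under 0.05 these were 0, 3, 3, 2 and 2 genes. The GABA synthesis genes Gad1 and Gad2 had LFCs of 0.02 and -0.04, and the summed level of the GABAergic markers lay between 45310 and 58568 in aged EH and between 44661 and 54334 in aged DH. Of the 9 oligodendrocyte markers 2 passed and were higher, Mobp (0.35) and Mal (0.25), with a summed level of 246242 to 298047 in the EH rats and 271261 to 320970.0 in the DH rats. Of the 9 magnocellular markers 4 passed, Creb3l1 (1.30), Caprin2 (0.87) and Pdyn (0.58) higher and Sim1 (-0.30) lower. Of 8 markers of other hypothalamic nuclei 2 passed, Prok2 (1.76) higher and Tac3 (-1.49) lower. Tac3 is named above for its likeness to Slc17a7, and the limit given there holds here too. The magnocellular sum lay between 273019 and 391454 in the EH rats and between 328169 and 541864 in the DH rats, and the part of these markers in the values of the 10 genes was not tested. Within groups the summed levels of these lists had r with Slc17a7 between -0.285 (vascular and meningeal) and 0.112 (magnocellular).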

How the data were processed

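Reads were aligned by the authors to rat Rn6 (STAR), assigned to genes (featureCounts) and scaled (DESeq2). For STAR and featureCounts, versions were not given in the sources used here. In each of 3 tables, 1 per comparison, the signal is, as the authors deposited it, a read count divided by a size factor estimated in that table. Their columns of fold changes and p-values were not used, and 0 per-sample columns were left unused. Gene positions in Rn6 are not given here.

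Log2 of the normalized count plus 1 was tested with limma 3.58.1 in R 4.3.3 (moderation with trend, two-sided, Benjamini-Hochberg threshold 0.05, mean of at least 10). Of the values above 0 in the adult DH data, 100% were whole reads within 0.1 read, and edgeR 4.0.16 and DESeq2 1.42.0 were run on them. Scripts were tested on simulated data. A common scale for 20 rats came from the median ratio of all genes. Figures were drawn with matplotlib 3.10.9.

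The 10 genes and the 16 lists were chosen with earlier results of these data known. The genes named are the 10, up to 4 genes per list called in aged DH with the defining markers, and the 10 others most like Slc17a7. Wfs1 and Nrgn, which with Fezf2 make up the adult calls of the forebrain list, were named after their values were seen. Some genes of the forebrain list are counted in it but not reported here by name.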

Additional observations from a re-analysis of the deposited data

Results flagged for a closer look

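In the adult DH group, replicate 2 stood apart on the low side for 6 of the 10 genes. Its gap to the nearest rat, divided by the range of the 5 rats, was 0.757 for Slc17a7, 0.746 for Neurod2, 0.763 for Bhlhe22, 0.738 for Slc30a3, 0.945 for Synpr and 0.825 for Rasgrp1, against a critical value of 0.71. Synpr had 977 normalized counts in this rat and 2013 in the next, and Rasgrp1 had 1518 and 2627. These were 6 of 40 groups examined over the 10 genes, a rule that chance meets in about 5% of groups. The 10 genes vary together from rat to rat, so the 6 are not separate events.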

How the results depend on the processing

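All ageing, aged DH and interaction LFCs of the 10 genes kept their direction under every alternative run (160, 158 and 268 values). The choice of the genes favours that direction in each of these comparisons, so nothing is read from its stability. Of 189 adult DH values 40 changed sign. With a replicate block, 987 genes were called in adult DH (1934 without it), 653 in aged DH (1119), 824 in ageing (921) and 1 for the difference between the ages (0), and 1 of the 10 genes passed in adult DH, Cxcl13 (LFC -0.75, limma adjusted p = 0.0279). Adult LFCs with the block were -0.086 for Slc17a7, -0.10 for Neurod6, -0.16 for Neurod2, -0.17 for Slc30a3, -0.11 for Rtn4rl2 and -0.11 for Rasgrp1. Same-number correlations over all genes in adult DH ran from -0.0825 to 0.134, in ageing from -0.0484 to 0.124 and in aged DH from -0.0616 to 0.162. They exceeded the best other number for adult DH replicate 2 (0.134 against 0.020), ageing replicate 1 (0.124 against 0.058) and aged DH replicate 1 (0.162 against 0.114). For every other number they lay below it. Such correlations cannot decide whether the label numbers mark a block. Slc30a3 was -0.067 by edgeR and -0.072 by DESeq2. Without both adult rats numbered 2, Slc30a3 was -0.0077, Neurod1 0.049 and Synpr 0.0091. With 1 rat left out in turn, adult LFCs ran from -0.21 to 0.59 for Slc17a7, -0.21 to 0.59 for Neurod6, -0.27 to 0.82 for Neurod2, -0.26 to 0.16 for Neurod1, -0.24 to 0.20 for Bhlhe22, -0.26 to 0.32 for Slc30a3, -0.14 to 0.63 for Rtn4rl2, -0.85 to 0.23 for Cxcl13, -0.20 to 0.15 for Synpr and -0.088 to 0.20 for Rasgrp1. Calls over all genes then ran from 1463 to 1743 in adult DH, 594 (without adult EH replicate 5) to 906 in ageing, 678 (without aged DH replicate 5) to 1186 in aged DH and 0 to 5 (without aged EH replicate 6) for the difference. Moderation without trend called 516 genes in ageing, 671 in aged DH and 1 for the difference. The cause of these changes was not tested.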
